A study of Mus musculus with 6 samples.

Results

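A set of 10 genes of cellular iron handling was followed in HK-2 cells with and without overexpression of uterine sensitization-associated gene-1 (USAG-1), a secreted antagonist of BMP and Wnt signalling encoded by SOSTDC1. The genes were taken by symbol, and all 10 of 10 were found once each among the 39234 genes of the deposited table. They are TFRC, STEAP3 and SLC11A2 for uptake, FTH1, FTL and PCBP1 for storage, NCOA4 for the breakdown of ferritin, SLC40A1 for export, and IREB2 and ACO1 for sensing. HK-2 is an immortalized line of human proximal tubular epithelial cells. One group was made of 3 libraries labelled Cont, and the other of 3 libraries labelled USAG1_OE, in which the study introduced USAG-1 by transient plasmid transfection. All 6 libraries carry the genotype label WT, and the labels name neither a vector given to the control cells, a time after transfection nor hypoxia-reoxygenation. The labels give Mus musculus as the organism, whereas 100% of the gene identifiers in the table are human.

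As background, iron bound to transferrin enters cells through the transferrin receptor, is released and reduced in the endosome, and reaches the cytosol through a divalent metal transporter. Iron that is not used is stored inside a shell of ferritin heavy and light chains, from which it is freed when NCOA4 carries ferritin to the lysosome, and any surplus leaves through ferroportin. Iron regulatory proteins bind stem-loops called iron-responsive elements, protecting the TFRC mRNA through its 3′ end and blocking translation of ferritin mRNA at its 5′ end when iron is low. The free iron pool feeds lipid peroxidation in ferroptosis, the form of cell death that the study examined, which is why these transcripts are of interest in this comparison.

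The 6 libraries held 41236194 to 48699471 counts on genes, a depth at which a count of 3, the limit that a count of 0 allows, corresponds to 0.0607 to 0.0718 on the counts-per-million scale (CPM). SOSTDC1 had 60 to 80 counts in the control libraries and 3907 to 5072 counts in the USAG1_OE libraries, so it follows the labels. Control replicate 3 stood apart from its group, as its gene counts gave a chi-square of 48.4 and 49.2 per degree of freedom against control replicates 1 and 2, where replicates 1 and 2 gave 6.81 and pairs of USAG1_OE libraries 8.10 to 8.87. Mitochondrially encoded genes held 4.80% to 5.59% of counts in control libraries and at most 1.55% in USAG1_OE libraries. Of 15 T and NK cell genes tested, 14 were lower in USAG1_OE libraries at an adjusted p under 0.05 (93.3%, beside 6.91% of all genes tested). The list summed to 112 to 130 CPM in controls and 30.1 to 37.9 CPM with overexpression, and its median log2 fold change was -3.65. IL7R, the 1 gene of the list that did not pass, took 17.8 to 21.9 CPM of the control sums. With overexpression it took 21.9 to 27.6 CPM, so that the sums understate the fall of the other genes. Among epithelial markers, KRT8, KRT18, PAX8 and GGT1 had at least 3628 counts in every library. Not all markers of that list were high, as CDH1 had 0 to 9 counts and PAX2 4 to 14, while VIM had 77865 to 95278. The proximal tubule genes LRP2 (0 counts in every library), AQP1 (0 to 8), CUBN (0 to 15) and SLC34A1 (7 to 27) were at or near 0. Other proximal tubule genes had more counts, with SLC5A2 at 36 to 95, ANPEP at 75 to 154 and MME at 635 to 1540, besides GGT1. Of the 14 kidney epithelial markers tested, 4 were higher (28.6%, beside 8.95% of all genes tested) and 0 lower with overexpression.

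With USAG-1 overexpression, TFRC rose and the other 9 iron genes did not pass the test. By the quasi-likelihood test of edgeR, 1 of the 10 genes was therefore higher and 0 were lower (adjusted p under 0.05), where 15.9% of the 18188 genes tested passed in either direction, 8.95% of them higher and 6.91% lower. The median log2 fold change of the 10 genes was 0.04, beside -0.02 over all genes tested. Control and USAG1_OE libraries were fully separated for 2 of the 10 genes, TFRC and SLC11A2, and for 37.6% of all genes tested. Both counts are near or under the shares over all genes and are no result about iron genes as a group. Nothing in the labels says that replicates came from separate cultures, so that p-values measure the spread between these libraries, which may be technical.

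**Figure D1:**
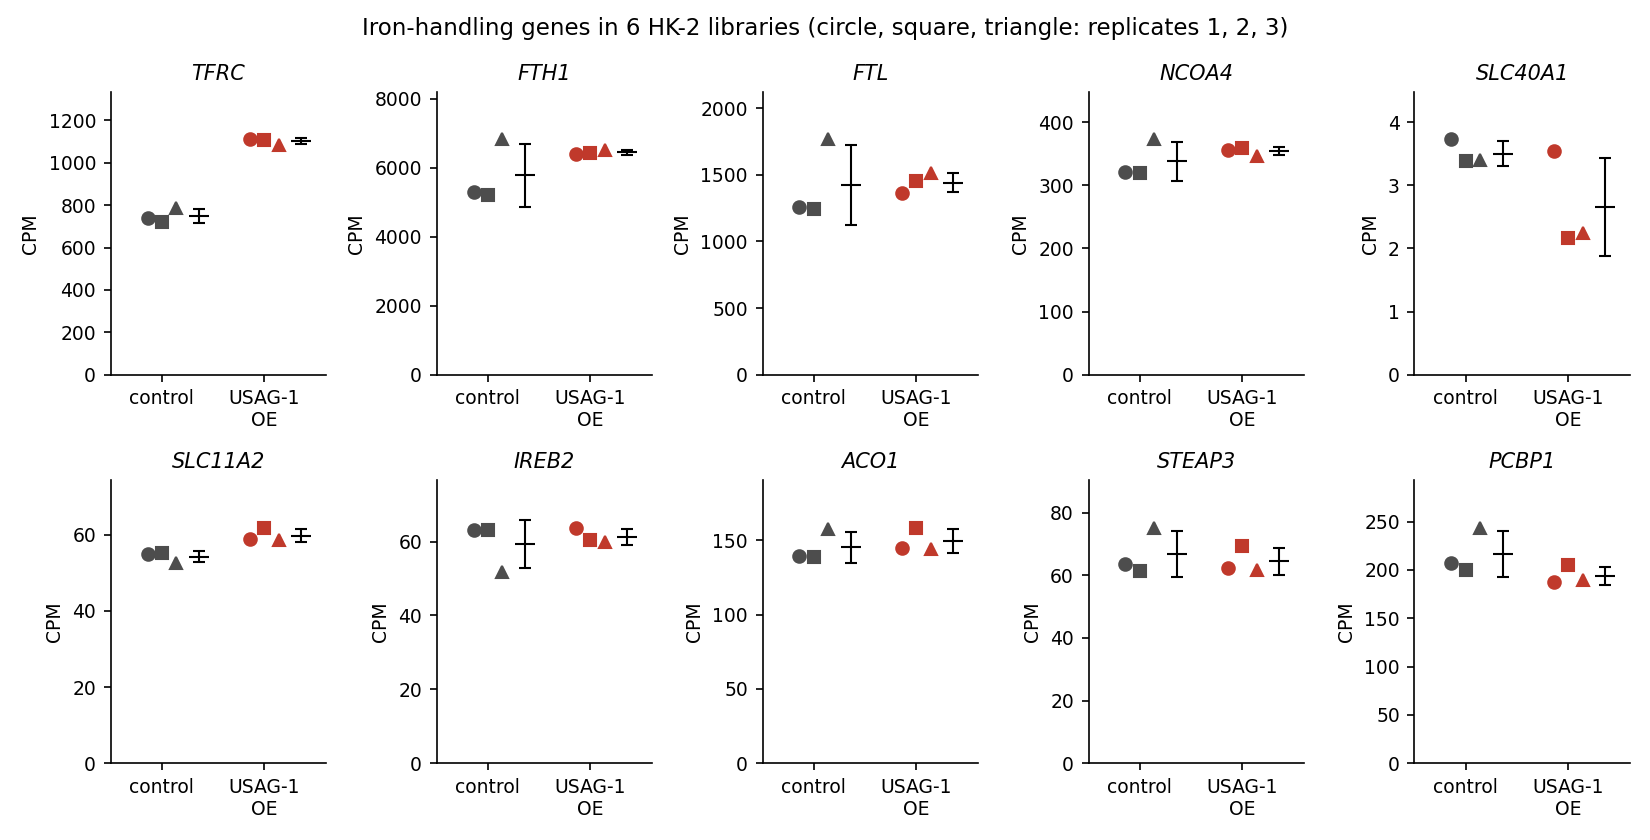
Each panel shows 1 gene in CPM on an axis from 0, with the 3 control libraries in grey and the 3 USAG-1-overexpressing (OE) libraries in red, and the mean and SD of each group as a bar beside the points. TFRC is the gene with a wide gap between the groups, while control replicate 3 (triangle) lies above the other controls for FTH1, FTL, NCOA4, STEAP3, PCBP1, ACO1 and, by less, TFRC, and below them for IREB2.

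TFRC (ENSG00000072274; chromosome 3, 196012511 to 196082127, minus strand) encodes the transferrin receptor, the main entry route for transferrin-bound iron. Its level was 740.5, 720.1 and 786.9 CPM in control replicates 1, 2 and 3, and 1111, 1108 and 1085 CPM in the USAG1_OE libraries. All 3 USAG1_OE libraries lay above all 3 controls, and the spread within each group was small beside the gap. The log2 fold change was 0.56 (standard error 0.05, 95% interval 0.43 to 0.68, adjusted p = 7.06e-04), a 1.47-fold rise. It passed the test in 14 of 14 alternative fits, with log2 fold changes between 0.53 and 0.60. No overlapping gene in the table held more than 0.00446% of its counts. In bulk RNA, more transcript per cell and more cells of a kind that carries it cannot be told apart.

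STEAP3 (ENSG00000115107; chromosome 2, 119223831 to 119265652) encodes the endosomal reductase that converts the iron released from transferrin to its ferrous form. STEAP3 was at 63.69, 61.48 and 75.22 CPM in controls and at 62.37, 69.38 and 61.54 CPM with overexpression, so the groups overlapped fully. Its log2 fold change of -0.05 had a 95% interval of -0.26 to 0.16 (adjusted p = 0.75), and it was 0.05 without control replicate 3. A receptor rise of the size seen for TFRC thus lies outside the interval for STEAP3.

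SLC11A2 (ENSG00000110911; chromosome 12, 50979401 to 51028566) encodes DMT1, the divalent metal transporter that moves ferrous iron out of the endosome. Its level was 54.91, 55.24 and 52.70 CPM in controls and 58.98, 61.90 and 58.56 CPM in USAG1_OE libraries. Every USAG1_OE library was above every control, but the step was small. SLC11A2 gave a log2 fold change of 0.14 (95% interval 0.01 to 0.27), which did not pass after adjustment (adjusted p = 0.147) and ran from 0.12 to 0.16 across the alternatives. As background, some SLC11A2 transcripts carry a 3′ iron-responsive element and others do not, and the table gives 1 count per gene and does not separate them.

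FTH1 (ENSG00000167996; chromosome 11, 61959718 to 61967634, minus strand) encodes the ferritin heavy chain, which oxidizes iron as it enters the shell. FTH1 was at 5289, 5214 and 6827 CPM in control replicates 1, 2 and 3 and at 6398, 6417 and 6519 CPM in the USAG1_OE libraries. Control replicate 3 was the highest of the 6 libraries and the other 2 controls were the lowest. Its log2 fold change was 0.16 (95% interval -0.07 to 0.38, adjusted p = 0.324). Without control replicate 3 it was 0.30 (standard error 0.02, adjusted p = 3.23e-05), so FTH1 was called only when that library was left out.

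FTL (ENSG00000087086; chromosome 19, 48965309 to 48966879, plus strand) encodes the light chain, which helps the iron core to form. Its level was 1259, 1245 and 1767 CPM in controls and 1362, 1452 and 1510 CPM with overexpression. The order was the same as for FTH1, with control replicate 3 above all other libraries and control replicates 1 and 2 below them. The log2 fold change was 0.02 (95% interval -0.28 to 0.31, adjusted p = 0.946), and it was 0.21 (adjusted p = 0.0066) without control replicate 3 and -0.07 without control replicate 2.

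Counts of the ferritin genes have neighbours and copies that could share reads. The 20 rows named as FTH1 pseudogenes together held 1.57% to 1.79% as many counts as FTH1, the 6 rows named as FTL pseudogenes held 0.272% to 0.328% as many as FTL, and none of the 12 pseudogenes tested passed the test. BEST1, a chloride channel gene that overlaps FTH1 on the opposite strand, had 242, 741 and 3578 counts in control libraries and 16745, 6136 and 15815 counts in USAG1_OE libraries, beside 220952 to 294000 counts of FTH1. BEST1 passed the test (log2 fold change 3.06, standard error 0.86, adjusted p = 0.0465), with a wide spread of counts among control libraries. The counting of strands is not given in the sources used here, so that reads of FTH1 and BEST1 may have been exchanged. With the BEST1 counts added to FTH1, the log2 fold change of FTH1 was 0.21 (adjusted p = 0.206).

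PCBP1 (ENSG00000169564; chromosome 2, 70087477 to 70089203) encodes an RNA-binding protein that also acts as a chaperone delivering iron to ferritin. PCBP1 was at 206.6, 199.4 and 243.7 CPM in controls and at 187.1, 204.6 and 189.7 CPM with overexpression. Of the USAG1_OE libraries, 2 lay below all controls and replicate 2 lay between control replicates 1 and 2. PCBP1 had a log2 fold change of -0.16 (95% interval -0.35 to 0.03, adjusted p = 0.243), and -0.06 without control replicate 3. PCBP1-AS1, on the opposite strand, held 5.23% as many counts and was not called.

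NCOA4 (ENSG00000266412; chromosome 10, 46005088 to 46030623) encodes the cargo receptor of ferritinophagy, the autophagy of ferritin. Its level was 321.6, 318.7 and 373.0 CPM in controls and 356.0, 358.2 and 346.4 CPM in USAG1_OE libraries. Once more, control replicate 3 was the highest library and the remaining controls were the lowest. NCOA4 had a log2 fold change of 0.07 (95% interval -0.10 to 0.23, adjusted p = 0.584), and without control replicate 3 it was 0.15 (adjusted p = 0.00711).

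SLC40A1 (ENSG00000138449; chromosome 2, 189560590 to 189583758) encodes ferroportin, the cellular iron exporter. It was the member with the fewest counts, 156, 167 and 145 in controls and 163, 95 and 97 in USAG1_OE libraries. These correspond to 3.73, 3.38 and 3.40 CPM in controls and to 3.55, 2.17 and 2.25 CPM with overexpression. Replicates 2 and 3 of the USAG1_OE group were below all controls, while replicate 1 was within the control range. The log2 fold change was -0.40 (standard error 0.23, 95% interval -0.92 to 0.12, adjusted p = 0.278). It was -0.66 (adjusted p = 0.0942) without USAG-1 overexpression replicate 1 and -0.27 (adjusted p = 0.564) without USAG-1 overexpression replicate 2.

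Neither transcript of the 2 iron regulatory proteins passed the test. IREB2 (ENSG00000136381; chromosome 15, 78437431 to 78498209) encodes IRP2, which is degraded when iron is ample, and was at 63.12, 63.06 and 51.81 CPM in controls and 63.81, 60.32 and 59.85 CPM with overexpression. Control replicate 3 was the lowest library, the reverse of its place for ferritin. Its log2 fold change was 0.05 (95% interval -0.15 to 0.25, adjusted p = 0.76), and -0.03 without control replicate 3.

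ACO1 (ENSG00000122729; chromosome 9, 32384603 to 32450836) encodes IRP1, which is an aconitase while it holds an iron-sulfur cluster and an RNA-binding protein without it. ACO1 was at 139.6, 138.7 and 157.3 CPM in controls and at 144.8, 158.6 and 144.4 CPM with overexpression, with 1 high library in each group. The log2 fold change was 0.04 (95% interval -0.13 to 0.20, adjusted p = 0.759). The activity of both proteins is set largely after transcription, by protein turnover for IRP2 and by the cluster for IRP1, which these counts do not measure.

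Whether the ferritin genes were called depended on control replicate 3. Relative to the mean of control replicates 1 and 2, log2 CPM in this library differed by 0.50 for FTL, 0.38 for FTH1, 0.26 for STEAP3 and PCBP1, 0.22 for NCOA4, 0.18 for ACO1, 0.11 for TFRC, -0.06 for SLC11A2 and SLC40A1 and -0.28 for IREB2. Such a gap was not rare in this library, since 14.4% of all genes tested had a larger one in either direction than FTL and 24.6% a larger one than FTH1. Across the 18188 genes tested, the gap had a Spearman correlation of -0.14 with the span of the gene in the genome, and the difference between control replicates 1 and 2 had one of -0.02. These are descriptions across genes, which are not independent replicates, and the part of gene length in the ferritin values was not tested. When control replicate 3 was left out, 4 of the 10 genes were called, TFRC, FTH1, FTL and NCOA4, all of them higher, where 27.0% of genes tested were called in either direction and 15.8% were called higher. That fit assumes that the 2 remaining controls vary like the USAG1_OE libraries, and SLC11A2, SLC40A1, IREB2, ACO1, STEAP3 and PCBP1 did not pass in it.

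**Figure D2:**
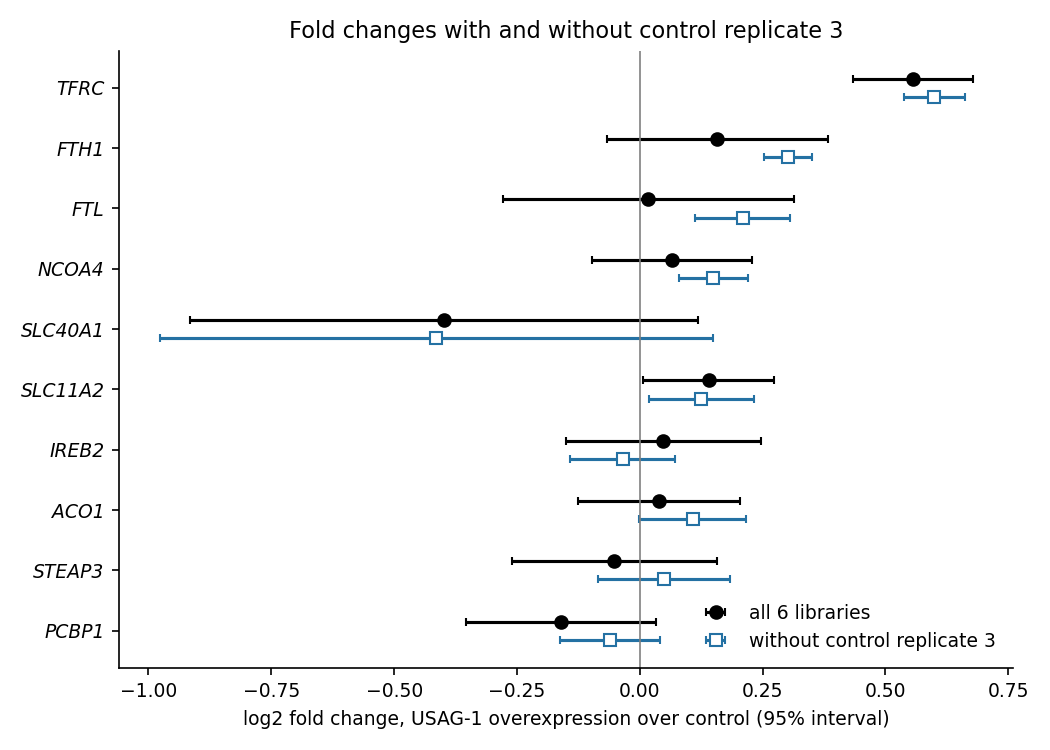
Points give the log2 fold change of each iron gene, USAG-1 overexpression over control, and bars its 95% interval, for all 6 libraries (filled circles) and without control replicate 3 (open squares). TFRC keeps its place (0.56 and 0.60), whereas FTH1 moves from 0.16 to 0.30 and FTL from 0.02 to 0.21 with narrower intervals.

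Ratios of counts within a library need no scaling between libraries, and were used to set receptor against storage transcripts. Because transcript lengths are not in the table, only the change of a ratio between libraries can be read, not its size. For every 100 counts of FTH1 and FTL together there were 11.3, 11.1 and 9.16 counts of TFRC in control replicates 1, 2 and 3. In the USAG1_OE libraries there were 14.3, 14.1 and 13.5. The groups did not overlap, and the log2 ratio was higher by 0.41 with overexpression, from -3.25 ± 0.170 to -2.84 ± 0.0432 (SD, n = 3 each; two-sided exact permutation test, p = 0.1, the smallest p that 3 libraries against 3 allow). Without control replicate 3 the gap was 0.31, and with BEST1 counted as FTH1 it was 0.37. Every USAG1_OE library was above every control, with or without the library that stood apart, though this number of libraries cannot bring p under 0.05.

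Within ferritin, the heavy chain was set against the light chain in the same way. There were 4.20, 4.19 and 3.86 counts of FTH1 per count of FTL in controls, and 4.70, 4.42 and 4.32 in the USAG1_OE libraries. The 3 USAG1_OE values were above the 3 control values by a small margin, since the lowest of the former exceeded the highest of the latter by less than the range within either group. The log2 ratio was higher by 0.13, from 2.03 ± 0.0685 to 2.16 ± 0.0628 (SD, n = 3 each; two-sided exact permutation test, p = 0.1). Ferritin counts as a whole took 0.663%, 0.655% and 0.822% of the counts in controls and 0.785%, 0.784% and 0.811% in USAG1_OE libraries.

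**Figure D3:**
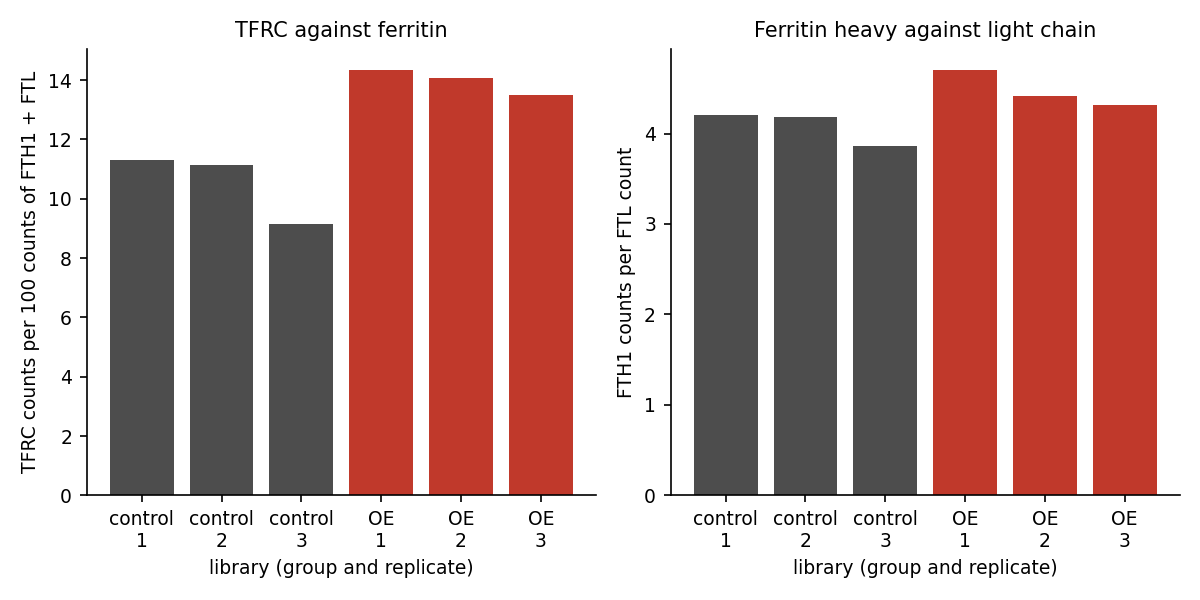
Bars give 1 library each, on axes from 0, in counts that are not corrected for transcript length. On the left, TFRC counts per 100 counts of FTH1 and FTL lie between 9.16 and 11.3 in controls (grey) and between 13.5 and 14.3 with USAG-1 overexpression (OE, red), and on the right, FTH1 counts per FTL count lie between 3.86 and 4.20 and between 4.32 and 4.70.

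The wider setting of iron metabolism was read from 99 further genes in 8 lists, typed by hand with earlier results of these data known. Of these, 96 were in the table and 86 were tested, with 13 higher and 5 lower at an adjusted p under 0.05, which is 15.1% and 5.81% of those tested beside 8.95% and 6.91% of all genes. Their median log2 fold change was 0.01. Because of how the lists were chosen, these shares and the counts per list below are no result about iron genes as a group. The count of 18 depended on single libraries, being 30 without control replicate 3, 10 without control replicate 1 or 2, 7 without USAG-1 overexpression replicate 1 or 2 and 9 without replicate 3. In 7 genes, HIF1A, EPAS1, SLC48A1, EPN1, TAX1BP1, LCN2 and SLC25A37, the call held in all 14 alternative fits. Without a filter on low counts, the genes that lost their calls include ATG9A, RB1CC1, ABCG2, CIAO2B, ALAS1, PPOX and HMOX1.

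In the list of iron sensing, 2 of 9 genes tested rose (22.2%, beside 8.95% of all genes tested) and 0 fell. HIF1A and EPAS1 encode the hypoxia-inducible factors HIF-1α and HIF-2α, whose degradation depends on iron-dependent prolyl hydroxylases. HIF1A was at 666, 650 and 568 CPM in controls and at 1064, 1074 and 1003 CPM with overexpression (log2 fold change 0.74, standard error 0.07, adjusted p = 7.47e-04). EPAS1 was at 164, 169 and 186 CPM in controls and 267, 282 and 261 CPM with overexpression (0.64, standard error 0.07, adjusted p = 9.56e-04). For both genes the groups were far apart. FBXL5, the ubiquitin ligase adaptor that holds iron and removes IRP2, was at 57.6 to 59.2 CPM in controls and 53.1 to 57.0 CPM with overexpression, a log2 fold change of -0.08 (adjusted p = 0.385).

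Among other mRNAs with an iron-responsive element, 2 of 5 genes tested were higher (40%, beside 8.95% of all genes tested) and 0 were lower. EPAS1, which is also in the list above, is 1 of those that were higher. EPAS1 carries its element at the 5′ end, as do FTH1, FTL and SLC40A1. These genes with a 5′ element gave log2 fold changes from -0.40 (SLC40A1) to 0.64 (EPAS1). Among the members, TFRC and SLC11A2, with a 3′ element, gave 0.56 and 0.14. CDC42BPA (0.42, adjusted p = 0.0747), CDC14A (-0.08) and APP (-0.03) were not called.

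For uptake and delivery, 2 of 15 genes tested were higher (13.3%) and 1 was lower (6.67%), beside 8.95% and 6.91% of all genes tested. EPN1, an adaptor of clathrin-coated vesicles such as those that take up the transferrin receptor, was at 130, 136 and 155 CPM in controls and at 196, 201 and 202 CPM with overexpression (log2 fold change 0.51, adjusted p = 0.00364). SLC39A8 encodes the metal importer ZIP8, which takes up zinc, manganese and iron that is not bound to transferrin. It went from 46.6, 47.0 and 47.9 CPM to 56.9, 59.6 and 55.2 CPM (0.28, adjusted p = 0.0166), a call lost at 0.25 to 0.29 without control replicate 1 or 2 or USAG-1 overexpression replicate 1 or 2. LCN2, which encodes the siderophore-binding protein NGAL and is known as a marker of tubular injury, was the 1 gene of this list that fell, from 8.19, 7.65 and 9.94 CPM to 4.90, 3.30 and 4.12 CPM (-1.06, standard error 0.19, adjusted p = 0.00763).

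The sister importer SLC39A14 (0.06), the ferric reductase CYBRD1 (0.05) and the second transferrin receptor TFR2 (-0.01) had log2 fold changes near 0 and did not pass the test. LRP2 and CUBN encode megalin and cubilin, the receptors by which the proximal tubule takes filtered transferrin and other proteins from the urine. LRP2 had 0 counts and CUBN 0 to 15 counts in any library, so that neither was tested.

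In the list of storage and ferritin turnover, 3 of 8 genes tested rose (37.5%, beside 8.95% of all genes tested) and 0 fell. The median log2 fold change of the list was 0.24, and the calls for RB1CC1 and ATG9A depended on single libraries. TAX1BP1, the autophagy receptor that carries NCOA4 and ferritin into lysosomes, was at 85.0, 81.7 and 67.8 CPM in controls and 117, 112 and 111 CPM with overexpression (log2 fold change 0.54, adjusted p = 0.00606). RB1CC1, a subunit of the kinase complex that starts autophagy, was at 55.6, 54.7 and 33.0 CPM and at 81.4, 78.6 and 72.3 CPM (0.70, adjusted p = 0.0338). Control replicate 3 was the low library here, and the call was lost at 0.66 to 0.75 without any 1 of the USAG1_OE libraries. ATG9A, the membrane protein of the early autophagosome, rose by 0.31 (adjusted p = 0.0309), a call lost at 0.26 to 0.32 without any 1 library other than control replicate 3. PCBP2, the partner of PCBP1 in iron delivery, had 0.08 (adjusted p = 0.569).

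**Figure D4:**
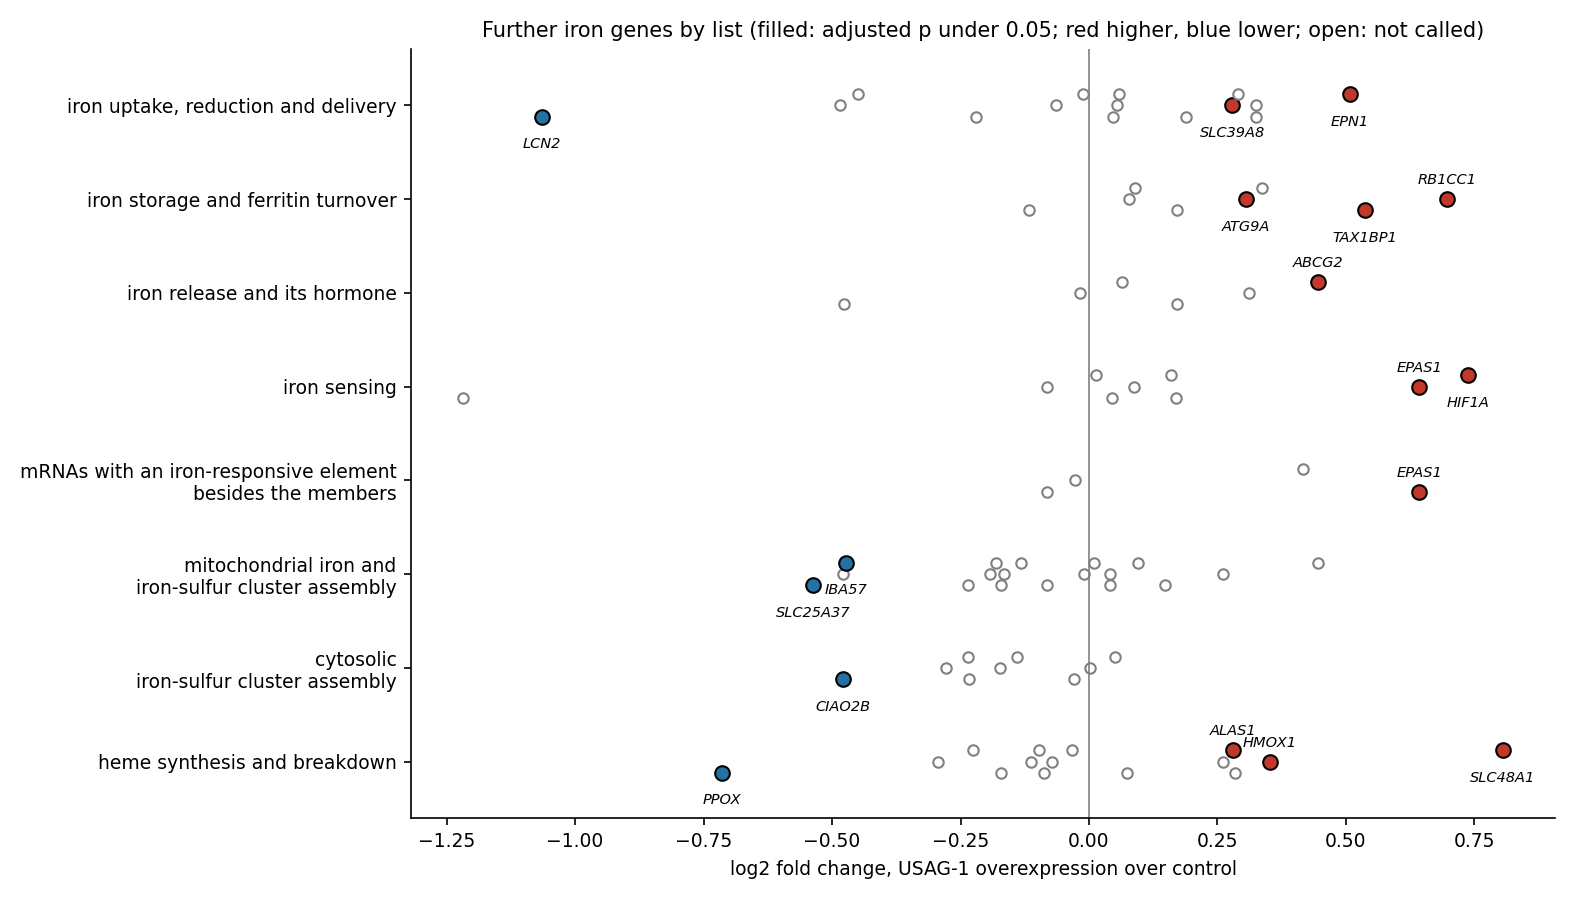
Each point is the log2 fold change of 1 further iron gene, USAG-1 overexpression over control, in the list given on the left, and named, filled points passed the test at an adjusted p under 0.05 (red higher, blue lower); 3 genes that are not reported here are not drawn. The genes that rose include HIF1A (0.74), EPAS1 (0.64, shown in 2 lists) and SLC48A1 (0.81), and the 5 that fell lie between -1.06 (LCN2) and -0.47 (IBA57).

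For heme, 3 of 15 genes tested rose (20%) and 1 fell (6.67%), beside 8.95% and 6.91% of all genes tested. SLC48A1 encodes HRG1, which brings heme out of the lysosome, and went from 36.1, 30.8 and 36.2 CPM in controls to 62.6, 60.2 and 57.2 CPM (log2 fold change 0.81, standard error 0.08, adjusted p = 9.28e-04). HMOX1, heme oxygenase 1, which frees iron from heme, was at 44.5, 39.9 and 50.0 CPM and at 55.6, 59.7 and 56.1 CPM (0.35, adjusted p = 0.0314). ALAS1, the first enzyme of heme synthesis, rose by 0.28 (adjusted p = 0.0299). PPOX, a late enzyme of the same route, fell by 0.71 (adjusted p = 0.0482). HMOX1 (0.27 to 0.37), ALAS1 (0.22 to 0.29) and PPOX (-0.83 to -0.52) lost their calls without any 1 library other than control replicate 3, whereas the call for SLC48A1 stood. PPOX lost the call in 9 of 14 fits, among them library sizes alone and library sizes without mitochondrially encoded genes. HMOX1 and ALAS1 lost it in 6 of 14 fits each.

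In the list of mitochondrial iron and iron-sulfur clusters, 2 of 20 genes tested fell (10%) and 1 rose (5%), beside 6.91% and 8.95% of all genes tested. The median log2 fold change of the list was -0.09. SLC25A37 encodes mitoferrin-1, an iron importer of the inner mitochondrial membrane, and fell from 94.2, 100.1 and 77.2 CPM to 62.1, 63.3 and 61.7 CPM (log2 fold change -0.54, adjusted p = 0.00805). IBA57, a late factor of iron-sulfur cluster assembly, fell by 0.47 (adjusted p = 0.0124) and lost the call at -0.45 to -0.42 without USAG-1 overexpression replicate 1 or 2. The second mitoferrin gene, SLC25A28 (-0.19, adjusted p = 0.185), and the scaffold protein gene ISCU (-0.01) were not called.

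Of 9 genes of cytosolic cluster assembly, 1 fell (11.1%, beside 6.91% of all genes tested) and 0 rose, with a median of -0.17. That gene was CIAO2B, a subunit of the targeting complex, at 41.0, 39.9 and 55.8 CPM in controls and 31.9, 33.4 and 32.8 CPM with overexpression (log2 fold change -0.48, adjusted p = 0.0362). Control replicate 3 was the highest library, and without it the log2 fold change was -0.30 (adjusted p = 0.00373). Its call was lost at -0.49 to -0.46 without any 1 of the USAG1_OE libraries. In the list of iron release and its hormone, 1 of 6 genes tested rose (16.7%, beside 8.95% of all genes tested). It was ABCG2, a transporter of heme and many drugs, which rose by 0.45 (adjusted p = 0.0423). The ABCG2 call was lost in 7 of 14 fits, at 0.41 to 0.48 without any 1 library other than control replicate 3. Hepcidin (HAMP) had 0 counts in every library, and ferroxidases that work with ferroportin were low, with HEPH at 0 to 0.0915 CPM and CP at 0.375 to 1.21 CPM.

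Transcripts of blood cells were present in both groups and differed between libraries. Erythroid and platelet genes summed to 8.28, 111 and 10.7 CPM in control replicates 1, 2 and 3 and to 78.0, 8.42 and 19.7 CPM in the USAG1_OE libraries, so their high libraries were control replicate 2 and USAG1_OE replicate 1. TFRC, which erythroid precursors also express strongly, was at 720.1 CPM in the former, the lowest of the controls, and at 1111 CPM in the latter, beside 1108 and 1085 CPM. Myeloid genes summed to 136, 109 and 202 CPM in controls and to 164, 180 and 188 CPM with overexpression. CD68 alone held 66.9, 62.7 and 92.3 CPM of the control sums and 126, 110 and 113 CPM of the USAG1_OE sums. Of 9 myeloid genes tested, 1 was higher and 1 lower (11.1% each, beside 8.95% and 6.91% of all genes tested). The former was CD68 (log2 fold change 0.66) and the latter LYZ (-0.73). By estimate alone, 3 of the 9 were higher and 6 lower, with a median of -0.16. Control replicate 3 was the highest control for this list. It was also the highest control for the sum of kidney epithelial genes (4997 CPM, beside 4182 and 4069) and for T and NK cell genes (130 CPM, beside 112 and 112). The largest parts of the epithelial sum were VIM (2233 CPM, beside 1864 and 1783) and KRT8 (1276 CPM, beside 994 and 970). Other genes of that list did not follow it. PAX8 was at 380 CPM, beside 380 and 365, while GGT1 (85.0 CPM, beside 116 and 112) and MME (14.9 CPM, beside 17.7 and 19.0) were lowest there. B cell genes summed to 9.49 to 12.3 CPM in controls and to 6.13 to 9.72 CPM in USAG1_OE libraries. Of 9 genes tested, 0 were called, beside 15.9% of all genes tested in either direction. By estimate alone, 8 of the 9 were lower and 1 higher, with a median log2 fold change of -0.69. The fall of T and NK cell genes given above ran with the same contrast as the rise of TFRC and the fall of LCN2. The part of blood cell RNA in any of these results was not tested.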

How the data were processed

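RNA sequencing libraries from 6 HK-2 samples (3 control, 3 USAG-1 overexpression) were grouped by their titles. Per the labels, libraries were poly(A)-selected, marked for strand and read in pairs. The series' design text instead names rRNA removal and another sequencer, so the selection of RNA is uncertain; its part in the mitochondrial share or in antisense counts was not tested. The submitters' processing notes name cutadapt 1.9, FastQC and hg38, the build of the coordinates here. The aligner, counting tool and annotation are not given in the sources used here. The authors deposited whole-number counts per gene, not normalized, in a table named for FPKM. All 6 columns were mapped to a library, leaving 0 unused.

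The low-count filter was filterByExpr, the scaling was TMM, and the test was the quasi-likelihood test of edgeR 4.0.16 in R 4.3.3 with group as the only term. Benjamini-Hochberg adjustment ran over 18188 genes, which held 99.9% of counts, and an adjusted p under 0.05 counted as called. CPM are TMM-scaled. Standard errors are the log2 fold change over the square root of F, and intervals use the test's degrees of freedom. Ratios were tested with scipy 1.17.1. The floors in CPM cover counting error only, as the reads carry no molecular identifiers. Code was tested on simulated data. Alternatives were DESeq2 1.42.0 (its test, and its size factors in edgeR), limma-voom (limma 3.58.1), library sizes alone or without mitochondrially encoded genes, other low-count filters, a replicate block, a threshold of 0.01 and each library left out. Adding BEST1 to FTH1 was chosen after seeing the data.

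The members and lists were chosen with earlier results of these data known. Named genes are the 10 members, up to 4 called genes per further list by p, SOSTDC1, and overlapping rows or pseudogenes holding 1% of a member's counts or passing the test. FBXL5, SLC39A14, CYBRD1, TFR2, LRP2, CUBN, PCBP2, CDC42BPA, CDC14A, APP, ISCU, SLC25A28, HAMP, HEPH and CP were named after their values were seen. The same holds for the markers SLC5A2, ANPEP, MME, CDH1, PAX2, VIM, IL7R, CD68 and LYZ. No human sequences were used here. Some genes of the lists are counted but not reported by name here.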

Additional observations from a re-analysis of the deposited data

How the results depend on the processing

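TFRC kept its direction and its call in all 14 fits, and both count ratios kept their direction in every alternative. The number of the 10 iron genes called was 1 in every alternative except without control replicate 3, where it was 4, so with a library left out it ran from 1 to 4. For the further iron genes this number was 18, and it was 10 without a filter on low counts, 7 at an adjusted p under 0.01, and 7 to 30 with a library left out. Over all genes 2885 were called, 1103 at an adjusted p under 0.01, and from 1137 (without USAG-1 overexpression replicate 2) to 5091 (without control replicate 3). No other scaling, test or filter moved these counts by more than 1.5 times. With a library left out, log2 fold changes that passed through 0 ran from -0.071 to 0.21 for FTL, from -0.034 to 0.096 for IREB2, from -0.0029 to 0.11 for ACO1 and from -0.11 to 0.048 for STEAP3. Each of these genes was uncalled with all libraries, and the cause was not tested. Same-numbered libraries did not deviate together (correlations of 0.12, -0.09 and 0.07 for replicates 1, 2 and 3, and not every library correlated best with its own number), so the numbers are not taken as pairs. With the replicate block, 1 iron gene, 16 further genes and 2382 genes overall were called, with PPOX and ABCG2 among the further genes that were not. Libraries of 3 against 3 limit what small shifts can be called, and SLC40A1, at 95 to 167 counts, was the member least well measured.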
